A study of Mus musculus with 4 samples.

Results

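The kinesin superfamily was measured here by 108 probe sets that named 44 mouse genes, out of 45037 non-control probe sets and 18193 genes on the array. A probe set, the array's unit of measurement, was a member where its only gene symbol in the platform annotation was that of a kinesin heavy chain (Kif or Kifc), a kinesin light chain (Klc) or the kinesin-associated protein Kifap3. Kif1c was left out by that rule (4 probe sets), and 1 further probe set that names Kif27 together with another gene has no single symbol. The arrays compared pseudopodia with cell bodies of NIH/3T3, an established mouse embryo fibroblast line, with 2 arrays for each compartment. In both groups cells grown with 10% calf serum were placed without serum on a membrane with pores, coated with fibronectin underneath only. They extended protrusions through the pores for 1 h and were fixed in 0.3% formaldehyde before 1 compartment was wiped away and the other was scraped off. Crosslinks of both were then reversed by 45 min at 70 °C. No arrays of cells without fibronectin were analysed here, so the values compare compartments of stimulated cells and not stimulated with resting cells.

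Kinesins are motors that use ATP to walk along microtubules, most of them towards the plus ends, which in a crawling fibroblast point mainly outward. Heavy chains of the transport classes carry vesicles, mitochondria and RNA-protein particles, and light chains or associated proteins link some of them to cargo. Another group works mainly in dividing cells, where it slides, crosslinks or shortens spindle microtubules or builds the cleavage furrow. Several mRNAs are known to gather in fibroblast protrusions in a microtubule-dependent way.

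Of the 44 genes, 32 had a probe set above the intensity filter (a mean log2 value of 5.42, an intensity of 42) and were tested, and each was represented by its probe set with the highest mean. Values in the table end at a floor of 20, which 30.5% to 34.8% of the non-control probe sets shared on each array. Across the 32 genes, the log2 values of the pseudopodia arrays correlated at 0.967, those of the cell body arrays at 0.956, and those of arrays from different compartments at 0.856 to 0.914. These are correlations across genes, which are not independent replicates. Of 12 fibroblast markers, 10 were above the filter, while Thy1 and Fap lay at the floor on all 4 arrays. Of the 10, 4 fell in pseudopodia (40%, against 8.69% of all tested genes by limma), and 9 read lower there with no overlap of arrays (90%, against 31.4%). Their median log2 difference, pseudopodia minus cell bodies, was -0.66, and the 12 summed to 59326 to 60223 in pseudopodia and 75774 to 83674 in cell bodies. Among 9 epithelial markers, 6 were above the filter, and the 9 summed to an intensity of 2678 to 2784 in pseudopodia and 2988 to 3832 in cell bodies. The 6 included Epcam and Krt14, while Krt18 lay at the floor on every array. Among 7 measured haematopoietic markers, 2 were above the filter (Csf1r and Adgre1), and the 7 summed to 291 to 314 in pseudopodia and 304 to 313 in cell bodies, and Itgam lay at the floor on all arrays. As a sign of RNA integrity, the 3' signal of the Actb control exceeded its 5' signal by a log2 ratio of 0.56 and 0.65 in pseudopodia and of 0.37 and 0.36 in cell bodies. For the Gapdh control the same ratio was -0.07 on each pseudopodia array and -0.1 on each cell body array, so it hardly differed between compartments. The part of these differences in the kinesin values was not tested.

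Kinesin mRNAs did not move together between the compartments. Kif5b, Kif16b and Kif2a rose in pseudopodia, and Kif18b, Kifc1 and Kifc5b fell there, while 26 genes did not pass the test (limma with Benjamini-Hochberg adjustment over 11320 genes, adjusted p threshold 0.05). The calls made up 18.8% of the family (6 of 32), against 14.6% of all tested genes. The share called higher was 9.38% (3 of 32), against 5.92% of all tested genes, and the share called lower was 9.38%, against 8.69%. These shares were near the background, so the family as a whole was not set apart by its number of calls. The median log2 difference of the family, pseudopodia minus cell bodies, was 0.09, against -0.00195 over all tested genes. Arrays of the 2 compartments did not overlap for 18 of 32 genes (56.2%), against a background of 60.8%. Of the 32, 12 read wholly higher in pseudopodia and 6 wholly lower, against 29.5% and 31.4% of all tested genes. An array reads each mRNA as a share of the RNA put on it. So more of a kinesin mRNA and less of other RNA cannot be told apart, nor can fewer cells that contain an mRNA from less of it per cell. The calls needed all 4 arrays and the filter: without any 1 array limma called 0 genes in the whole table (2792 to 2883 at an unadjusted p under 0.05), with a lowest adjusted p in the family of 0.07 to 0.0812, and without the filter it called 0 kinesins (13 at an unadjusted p under 0.05). With the mean of a gene's probe sets in place of 1 probe set, 0 kinesins were called higher and 4 lower (Kif18b, Kif22, Kifc1 and Kifc5b).

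**Figure D1:**
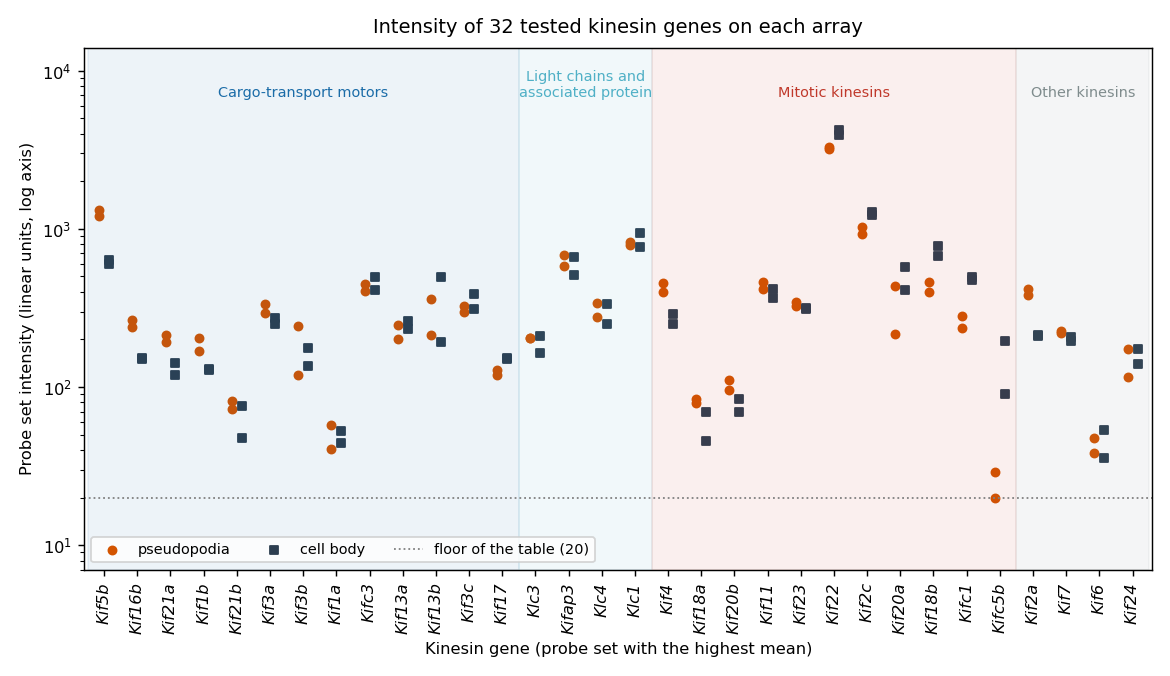
Probe set intensity of the 32 tested kinesin genes on each of the 4 arrays (vertical log axis, linear intensity units), with genes grouped by role and ordered by their difference within each role. Circles are pseudopodia arrays and squares are cell body arrays. For Kif5b both circles (1212 and 1324) lie above both squares (602 and 638), and for Kifc5b one circle lies on the floor of 20, drawn as a dotted line.

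Among the motors that carry cargo, 2 of 13 tested genes rose in pseudopodia and 0 fell, beside 5.92% and 8.69% of all tested genes. Kif5b, the ubiquitous heavy chain of conventional kinesin, read 1212 and 1324 in pseudopodia against 602 and 638 in cell bodies. Both pseudopodia arrays thus lay well above both cell body arrays, and the spread within a compartment was small beside the gap. The mean was 1268 ± 78.7 in pseudopodia and 620 ± 25.9 in cell bodies (SD, n = 2), and Kif5b rose 2.04-fold (log2 difference 1.03, SE 0.13, adjusted p = 0.0183 by limma). Kif16b, which carries early endosomes towards microtubule plus ends, read 240 and 265 in pseudopodia against 151 and 153 in cell bodies. Its arrays did not overlap either, and it rose 1.66-fold (log2 difference 0.73, SE 0.13, adjusted p = 0.031 by limma).

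The transport motor with the next largest difference was Kif21a, a kinesin that acts on microtubule growth at the cell cortex as well as in transport. It read 214 and 193 in pseudopodia and 119 and 141 in cell bodies, which did not overlap. Its log2 difference of 0.64 (SE 0.15) missed the threshold at an adjusted p of 0.0581 by limma. Its 2 other probe sets above the filter overlapped between compartments, with differences of 0.28 and 0.11. With the mean of its probe sets the difference was 0.34 (adjusted p = 0.331 by limma). At the other end of the list were Kif17, Kif3c and Kif13b. Kif17, a homodimeric motor best known from dendrites and cilia, read 129 and 119 in pseudopodia and 153 and 150 in cell bodies. Its arrays did not overlap, but its log2 difference of -0.29 (SE 0.13) gave an adjusted p of 0.217 by limma. Kif3c, a partner in some kinesin-2 motors, read 326 and 298 against 389 and 312, which overlapped (log2 difference -0.16, SE 0.17). Kif13b, a motor that carries membrane receptors and scaffolds, read 360 and 213 in pseudopodia and 495 and 192 in cell bodies. Its arrays differed as much within a compartment as between them, so a log2 difference of -0.15 with an SE of 0.51 says little about its distribution. The 7 remaining tested motors (Kif1b, Kif21b, Kif3a, Kif3b, Kif1a, Kifc3 and Kif13a) had log2 differences of -0.15 to 0.51, and none of them passed the test. Over the 13 genes, 8 differences were above 0 and 5 below, with a median of 0.14. Arrays did not overlap for 6 of 13 genes (46.2%), against 60.8% in the background. Of the 13, 5 read wholly higher in pseudopodia and 1 wholly lower, against 29.5% and 31.4% of all tested genes.

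**Figure D2:**
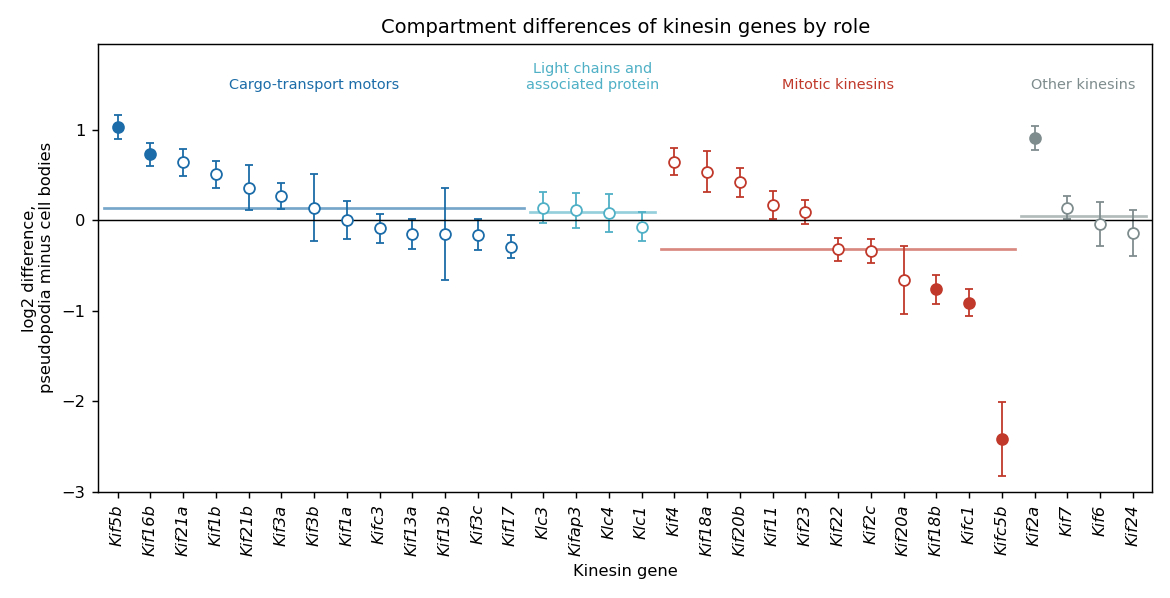
log2 difference, pseudopodia minus cell bodies, of each tested kinesin gene by role. Bars are the SE from the limma fit, filled points passed the adjusted p threshold of 0.05, and a horizontal line marks the median of each role. Transport motors run from -0.29 to 1.03 around a median of 0.14, and mitotic kinesins from -2.42 to 0.65 around a median of -0.32.

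The subunits that join motors to cargo showed no call at the probe sets that represent them. The light chain Klc2 was not among them, as no probe set had it as its only symbol. Klc1, a light chain of conventional kinesin, read 794 and 830 in pseudopodia and 766 and 942 in cell bodies, so the cell body arrays enclosed the pseudopodia arrays. Its log2 difference was -0.07 (SE 0.16, adjusted p = 0.822 by limma). Kifap3, the non-motor subunit of heterotrimeric kinesin-2, read 579 and 686 against 667 and 513, with a difference of 0.11 (SE 0.19). The light chains Klc3 (204 and 205 against 211 and 163) and Klc4 (340 and 276 against 336 and 251) overlapped between compartments as well, with differences of 0.14 and 0.08. A second, dimmer Klc4 probe set read 55.3 and 74.4 against 48.5 and 40.4, without overlap. Its difference of 0.52 was not called (adjusted p = 0.187 in the limma fit of probe sets). At the representing probe sets, the median of the 4 genes was 0.09. There, 0 of the 4 had arrays that did not overlap, against 60.8% in the background. Kif5b rose while none of the 3 light chain genes above the filter passed the test, but whether Kif5b differed from them was not tested.

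Mitotic kinesins went both ways. Of 11 tested genes, 3 fell and 0 rose (27.3% lower, against 8.69% of all tested genes), with 5 differences above 0, 6 below, and a median of -0.32. Kifc1, a minus-end motor that focuses spindle poles, read 282 and 235 in pseudopodia and 497 and 474 in cell bodies. It fell with no overlap of arrays, being 1.88-fold higher in cell bodies (log2 difference -0.91, SE 0.15, adjusted p = 0.0256 by limma). Kif18b, a motor that shortens astral microtubules, read 397 and 460 in pseudopodia and 671 and 784 in cell bodies. It was 1.7-fold higher in cell bodies (log2 difference -0.76, SE 0.16), and its adjusted p of 0.042 by limma was the closest to the threshold among the 6 called kinesins. Kifc5b, a close relative of Kifc1, read 20 and 29 in pseudopodia and 90.1 and 196 in cell bodies. It fell as well, by a log2 difference of -2.42 (SE 0.41, adjusted p = 0.0267 by limma). The size is uncertain, since 1 pseudopodia array lay at the floor and the cell body arrays differed from each other more than 2-fold. Kifc1 and Kifc5b are near-identical copies, and the Kifc1 probe set is of the kind (_s_at) that can match several transcripts. Their falls may therefore rest in part on the same RNA. Taken as 1 gene, they leave 2 of 10 mitotic kinesins lower (20%) and 5 of 31 kinesins called (16.1%). The median of -0.32 counts them as separate genes, and it was not recomputed with them as 1 gene.

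Kif22, a chromosome-arm motor, had arrays at 3211 and 3288 in pseudopodia and 3902 and 4199 in cell bodies. They did not overlap, yet the log2 difference was only -0.32 (SE 0.13, adjusted p = 0.178 by limma). On the positive side were Kif4, Kif18a and Kif20b. Kif4, which organises chromosomes and the central spindle, read 399 and 452 in pseudopodia and 251 and 290 in cell bodies, a clear gap between the compartments. Its log2 difference of 0.65 (SE 0.15) lay just beyond the threshold, at an adjusted p of 0.0546 by limma. It was called with the replicate number as a block (adjusted p = 0.0356), with a pseudocount of 20 (0.0423), with a stricter filter (0.0358) and with an intensity trend in the prior variance (0.0293), and across all its alternatives with 4 arrays its adjusted p ran from 0.0293 to 0.158. Kif18a, a plus-end motor that aligns chromosomes, read 84 and 79.7 against 69.2 and 45.5, and Kif20b, which acts in cytokinesis, read 96.2 and 110 against 84.2 and 69.5. Neither overlapped, and their differences of 0.54 (SE 0.23) and 0.42 (SE 0.16) had adjusted p-values of 0.191 and 0.162 by limma. The other 4 (Kif11, Kif23, Kif2c and Kif20a) had differences of -0.66 to 0.17. In all, 10 of 11 mitotic genes (90.9%) had arrays that did not overlap, against 60.8% in the background. Of these, 5 were higher in pseudopodia (background 29.5%) and 5 lower (background 31.4%). The exception was Kif20a, a motor of the cleavage furrow, at 436 and 215 in pseudopodia against 570 and 411 in cell bodies.

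Set side by side, the 2 calls among 13 transport motors were both higher in pseudopodia, and the 3 calls among 11 mitotic kinesins were all lower. This contrast rests on the setting used: the mitotic Kif4 was also called higher in 4 others, a dim probe set of Kif11 was called higher in the fit of probe sets, and with the mean of a gene's probe sets 0 transport motors were called. In the fit of all probe sets, 5 of 35 transport motor probe sets were called higher and 0 lower. Of 18 mitotic ones, 1 was called higher and 4 lower, beside 4.3% and 7.44% of all probe sets. The gene-level medians of the roles, 0.14 and -0.32, lay on opposite sides of that of all tested genes. Without the filter both were -0.04. The mitotic median also counts the near-identical Kifc1 and Kifc5b as separate genes. The range of the mitotic group (-2.42 to 0.65) took in that of all transport motors but Kif5b and Kif16b. On single arrays, the median log2 level of the transport motors was 7.92 and 7.74 in pseudopodia and 7.27 and 7.48 in cell bodies, without overlap. A different gene held the middle place on each array, and 6 of 13 genes had arrays without overlap (46.2%, against 60.8% in the background). Of the 13, 5 read wholly higher in pseudopodia and 1 wholly lower (29.5% and 31.4% in the background). The other genes overlapped, so these medians do not show a shift of the whole list. The median level of the mitotic kinesins was 8.64 and 8.43 in pseudopodia and 8.51 and 8.69 in cell bodies, which overlapped. The mitotic median moved to -0.09 without cell body replicate 2, where Kifc5b fell under the filter and 10 genes were left. It moved to -0.15 without pseudopodia replicate 2, and the transport median to 0.28 without pseudopodia replicate 1. No test of the difference between the roles was run, since the lists were chosen with results of these data known. The contrast depends on those lists as well. Kif2a, which was called higher (0.91) and also acts at spindle poles, and the kinetochore kinesin Cenpe (0.57, not called) were not counted as mitotic kinesins.

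Of the kinesins outside these roles, 4 were tested and 1 rose (25%, against 5.92% of all tested genes). Kif2a, a kinesin that does not walk but strips tubulin from microtubule ends, in interphase cells as well as at spindle poles, read 382 and 416 in pseudopodia and 214 and 210 in cell bodies. The cell body arrays were nearly equal and both far below the pseudopodia arrays. Kif2a rose 1.88-fold (log2 difference 0.91, SE 0.13, adjusted p = 0.0202 by limma), from 212 ± 2.73 to 399 ± 24.1 (SD, n = 2). Its mitotic relative Kif2c, which removes faulty attachments at kinetochores, read 933 and 1030 in pseudopodia and 1221 and 1271 in cell bodies, for a log2 difference of -0.34 (SE 0.13, adjusted p = 0.162 by limma). The difference between these relatives was not tested. Kif7, a regulator of hedgehog signalling in cilia, read 226 and 218 in pseudopodia and 206 and 195 in cell bodies, a small gap that gave a difference of 0.14 (SE 0.13). Kif24, a centriole protein, and Kif6 had differences of -0.14 and -0.04, with overlapping arrays.

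Several genes were read by more than 1 probe set, and these did not always match. Above the filter lay 68 of the 108 probe sets, and 14 genes had at least 2 of them. A separate limma fit took all 22519 probe sets above the filter. In it, 8 of the 68 were called higher (11.8%, against 4.3% of all) and 4 lower (5.88%, against 7.44%). By role, 5 of 35 transport motor probe sets were called higher and 0 lower, with a median difference of 0.15. Among 18 mitotic ones, 1 was called higher and 4 lower, with a median of -0.12 and 9 differences on each side of 0. The other probe sets of the 14 genes, 36 in all, had the sign of the representing probe set in 29 cases (80.6%), against 71.1% of 8065 across all tested genes. Probe sets of 1 gene were read on the same arrays and are not replicates.

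The 5 probe sets of Kif5b above the filter showed the widest range of any called gene with several. The representing one differed by 1.03 and a second, at 373 and 282 against 135 and 144, by 1.21 (adjusted p = 0.0305 in the limma fit of probe sets). Another, at 434 and 578 against 304 and 265, differed by 0.82 (adjusted p = 0.0707). Yet another, at 266 and 192 against 207 and 168, overlapped between the compartments (0.27), and the dimmest, at 31.1 and 41.7 against 55.6 and 45, differed by -0.46 (adjusted p = 0.237). A further Kif5b probe set under the filter, at 44.3 and 63.3 against 22.7 and 20, differed by 1.28 and was not tested. Kif2a had 4 probe sets above the filter, all with differences above 0, from 0.11 to 0.91. The other probe set of Kif16b above the filter read 79.1 and 65.9 against 68 and 64.4, an overlap with a difference of 0.12 (adjusted p = 0.671). The one that was called is of the kind that can match several transcripts. Kif18b and Kifc1 had 1 probe set each, and so had Kifc5b. In the probe set fit, Kifc1 and Kifc5b stayed past the threshold and Kif18b did not (adjusted p = 0.0568).

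**Figure D3:**
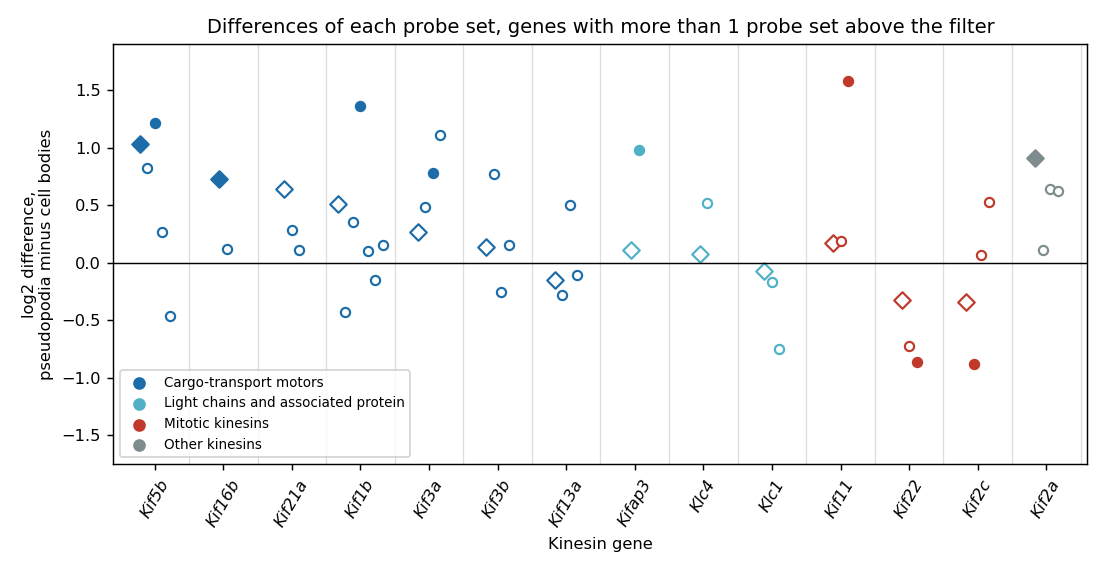
log2 difference, pseudopodia minus cell bodies, of each probe set above the filter for the 14 kinesin genes with at least 2 such probe sets. Diamonds represent the gene in the gene-level fit, circles are its other probe sets, and filled symbols passed an adjusted p of 0.05 in the fit of all probe sets. Kif1b spans -0.43 to 1.36, and the diamonds of Kif3a, Kifap3, Kif22 and Kif2c are open beside a filled circle.

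For 6 genes without a call in the gene fit, another probe set was called in the probe set fit. Kifap3 had one at 510 and 412 in pseudopodia against 258 and 210 in cell bodies, with no overlap and a difference of 0.98 (adjusted p = 0.0459 in the limma fit of probe sets). The kinesin-2 motor Kif3a, which pairs with Kif3b and binds Kifap3, had 4 probe sets, all above 0, with differences of 0.27, 0.48, 0.78 and 1.11. Of these, the one at 94.9 and 106 against 60.1 and 56.4, was called (adjusted p = 0.0425). For Kif3b, the largest difference was 0.77 (162 and 156 against 103 and 84.4), which missed the threshold at adjusted p = 0.054 in that fit. Its other 3 probe sets had differences of -0.25 to 0.15.

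Kif1b, a carrier of mitochondria and synaptic vesicle precursors, had 7 probe sets above the filter, from -0.43 to 1.36. The highest read 130 and 175 in pseudopodia against 71.7 and 46.9 in cell bodies and was called (adjusted p = 0.047 in the limma fit of probe sets), while the others were not. Kif11, the motor that pushes spindle poles apart, had a dim probe set at 59.5 and 97.7 against 28.5 and 21.5, with a difference of 1.58 (adjusted p = 0.0395). Its brighter ones, with differences of 0.17 and 0.19, were not called, so this value rests on cell body levels close to the floor.

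Kif22 and Kif2c were the reverse case, with second probe sets lower in pseudopodia. The probe set that represents each ends in _x_at, a mark of possible cross-hybridisation. For Kif22 the probe set without such a suffix read 308 and 278 in pseudopodia and 552 and 514 in cell bodies (difference -0.86, adjusted p = 0.0354 in the limma fit of probe sets). For Kif2c another probe set read 193 and 155 against 322 and 318 (difference -0.88, adjusted p = 0.0437). Both lay wholly below their cell body arrays. Without all probe sets ending in _s_at or _x_at, the gene fit called Kif5b and Kif2a higher and Kif18b, Kif22, Kif2c and Kifc5b lower, and Kifc1 had no probe set left. The remaining 2 probe sets of Kif2c had differences of 0.07 and 0.53, the second at 65.1 and 65.5 against 52 and 38.7.

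The 12 genes that were not tested had every probe set under the filter on the mean, with no single reading above 55. Kif14, Kif2b, Kif26a and Kif28 had 1 probe set each, at 20 on all 4 arrays. Kif14, a motor of the midbody, and Kif15, a spindle motor, thus gave no measurable difference, Kif15 reading 21.5 to 30.5. The neuronal heavy chains Kif5a and Kif5c, relatives of Kif5b, reached at most 41.4 and 30.2 over 3 and 4 probe sets. The minus-end motor Kifc2 reached 55, Kif12 52, Kif26b 30.4, Kif27 27 and Kif9 21.5. A reading at the floor is an upper bound of that probe set and does not show that the gene is silent.

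Among proteins that tie kinesins to cargo or help them onto microtubules, 3 of 23 tested genes rose and 1 fell (13% and 4.35%, against 5.92% and 8.69% of all tested genes), with a median of 0.13. Trak2, which joins conventional kinesin to mitochondria, read 782 and 926 in pseudopodia and 281 and 259 in cell bodies, and rose by 1.65 on the log2 scale (SE 0.15, adjusted p = 0.0166 by limma). It belongs to a known set of protrusion RNAs that was in part chosen on these samples. Its rise and its part in the 13% called higher are therefore no independent result. Apc, a tumour suppressor that rides on kinesin-2 to microtubule tips, read 338 and 322 against 176 and 180 and rose by 0.88 (SE 0.13), and its second probe set had a difference of 1.53. Ppfia1, a liprin that binds Kif1 motors, read 870 and 904 against 534 and 527 and rose by 0.74 (SE 0.13, adjusted p = 0.027 by limma), while its other probe set differed by -0.2. The 3 genes had no overlap of arrays. Mapk8ip3, a scaffold that binds kinesin light chains, went the other way, at 85 and 81 in pseudopodia against 183 and 243 in cell bodies. It fell with a difference of -1.33 (SE 0.18), and of its other probe sets 1 differed by -1.35 and 1 by 0.2.

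Mitotic genes outside the rule's symbols also went both ways, with 4 of 34 tested genes higher and 3 lower (11.8% and 8.82%, against 5.92% and 8.69% of all tested genes) and a median of -0.19. Of these, 26 of 34 (76.5%) had arrays that did not overlap, against 60.8% in the background. That is 7 higher (background 29.5%) and 19 lower (background 31.4%), and 23 of the 34 differences were below 0. The kinetochore protein Spc25 read 1081 and 1310 in pseudopodia against 513 and 639 in cell bodies and rose by 1.05 (SE 0.18, adjusted p = 0.0277 by limma), while its other probe set differed by 0.14. Ttk, the checkpoint kinase, read 81.4 and 88.9 against 47.2 and 37.5 and rose by 1 (SE 0.17), though its second probe set had a difference of -0.27. Nusap1, a spindle protein, rose by 0.98 (SE 0.14), from 412 and 385 to 751 and 825. The remaining call was the checkpoint kinase Bub1, which lies outside the rule for named genes and was added after its values were seen. On the other side, the mitotic kinases Plk1 (973 and 1076 against 1732 and 1893) and Aurka (1059 and 1195 against 1743 and 1996) fell, with differences of -0.82 and -0.73 (SE 0.14 and 0.15). Cdc20, an activator of the anaphase-promoting complex, fell by 0.57 (SE 0.13, adjusted p = 0.0478 by limma), and 2 further probe sets of it differed by -0.89 and -1.01. Cenpe, a kinetochore kinesin whose symbol the rule does not match, read 145 and 203 against 133 and 99.8, with a difference of 0.57 (SE 0.24, adjusted p = 0.186 by limma).

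**Figure D4:**
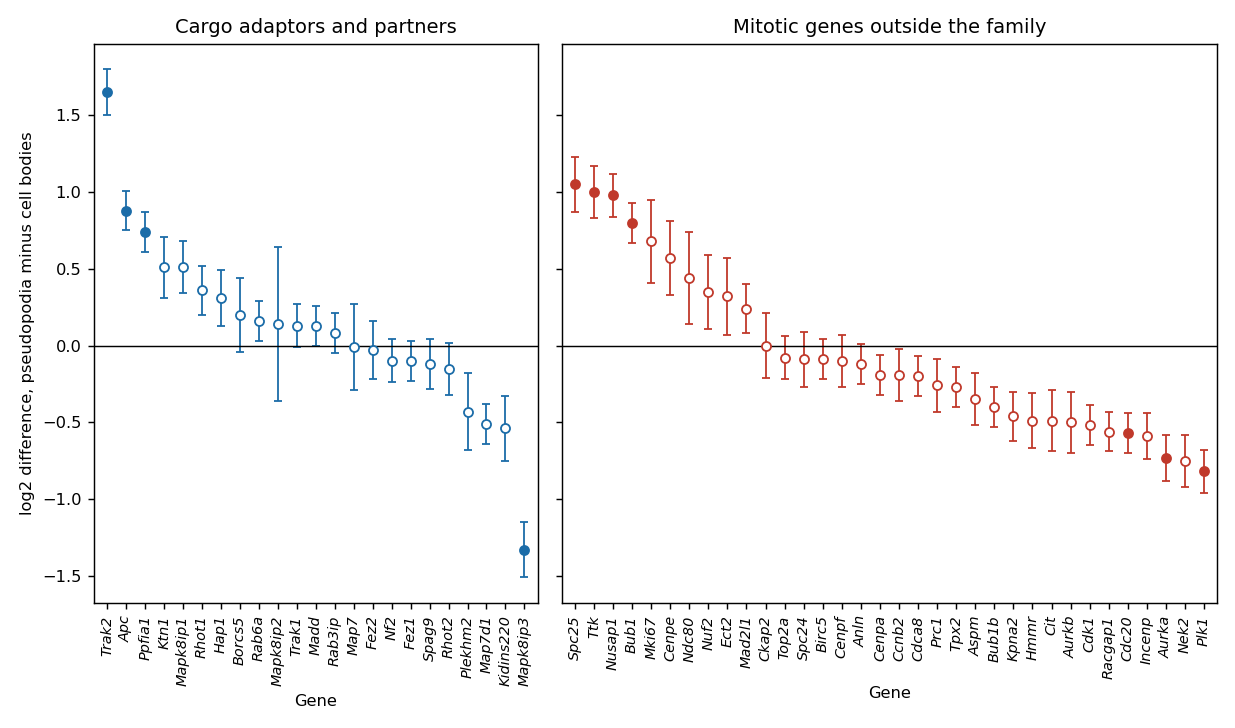
log2 difference, pseudopodia minus cell bodies, of 23 kinesin adaptors and partners (left) and 34 mitotic genes outside the family (right), each sorted by its difference. Bars are the SE from the limma fit and filled points passed an adjusted p of 0.05. Trak2 (1.65) and Mapk8ip3 (-1.33) mark the ends of the left panel, Spc25 (1.05) and Plk1 (-0.82) those of the right.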

How the data were processed

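The authors deposited 1 table of linear intensities per probe set and array, with a floor of 20. Steps not given in the sources used here include the summary of probes, the scaling of arrays and the software. The text records of the arrays, a deposited set of other values, list 1 chip lot, station, scanner and scan day for all 4, with 4 fluidics modules, and so held no batch to fit. Values were taken as log2(intensity + 1), so a fold understates the change of dim genes. Of a gene's probe sets, the one with the highest mean stood for it (18193 genes). The filter at the median mean of 45037 non-control probe sets left 11320 genes. Of the 44 kinesin gene IDs, 44 matched a RefSeq table (GRCm38.p6). No coordinates are given, as the build behind the annotation is not stated.

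Compartments were compared by limma 3.58.1 in R 4.3.3 (lmFit, eBayes, two-sided, no covariate, 2 residual and 2.9 prior degrees of freedom). The code was tested on simulated data. Permuting 4 arrays allows no p below 33.3% and was not done. The sample size is the number of arrays, 2 per compartment. The SE depends on it, on the spread of each probe set and on a prior variance fitted over all tested genes. The series' design text calls the samples independent, but separate cultures are not stated, so the p-values cover only the spread among these samples, and that may be technical. Alternatives changed the pseudocount, filter, normalization, probe set choice, variance model, block and arrays.

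The members and lists were chosen with earlier results of these data known. By rule, the genes named with their values were those past the test, the brightest of each role, and the 3 highest and 3 lowest differences of each role. Outside the family they were the 3 highest and 3 lowest among called genes. Markers, untested genes, remaining members of a list and second probe sets were named beside these as context.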

Additional observations from a re-analysis of the deposited data

How the results depend on the processing

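The 6 called kinesins kept their direction under every alternative that tested them. For most alternatives this was fixed in advance, since the arrays of these genes did not overlap. Leaving out an array or changing the pseudocount, filter, variance model or block could not reverse the sign of a given probe set. Normalization and probe set choice could have done so. With median centring or quantile normalization the called kinesins were the same, while the outside mitotic genes called lower numbered 4 and 2, against 3. Without a filter on low values limma called 0 kinesins, adaptors or mitotic genes in either direction (2 genes in the whole table, 3844 at an unadjusted p under 0.05), and the transport and mitotic medians were both -0.04. With the mean of a gene's probe sets, 0 kinesins and 0 transport motors were higher, 2 mitotic genes outside the family were higher and 6 lower, and the mitotic kinesin median was -0.16. With each probe set on its own, 7 kinesin genes and 4 transport motors had a probe set called higher, and 2 adaptors had one called lower. Without probe sets ending in _s_at or _x_at, 1 transport motor was higher. A stricter filter called 5 kinesins higher (with Kif4 and Kif21a added), 2 adaptors lower and 7 outside mitotic genes lower. A pseudocount of 20 called 2 adaptors and 6 outside mitotic genes lower, and an intensity trend in the prior variance 2 and 9. Leaving out single arrays gave counts of 0 throughout, with medians of 0.1 to 0.28 for transport motors and -0.37 to -0.09 for mitotic kinesins. The cause of these changes was not tested. With the replicate block, the higher kinesins were 4 (Kif4 added) and the lower 3. Over all tested genes limma called 2202 with this block, against 1654 without it. Deviations of same-numbered arrays correlated at 0.342. The sample titles carry the same replicate numbers in both compartments but do not state a pairing, and whether the arrays were paired was not tested. Background correction could not be varied on probe set summaries and was not run. Dim probe sets near the floor limit what can be read.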
